A study of Mus musculus with 64 samples.

Results

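The transcripts of 7 genes, Car3, Plin3, Aimp2, Dusp26, Grk3, Cdc42ep2, and Mpp3, were followed in the gastrocnemius muscle of mice lacking HIF1α in skeletal muscle (HIF1α KO). They are 7 of the 55401 genes counted and of the 15241 with enough counts to be tested, and they were chosen by their counts in these libraries, which were higher in HIF1α KO than in fl/fl. The genotype difference of these genes is therefore given as a description of its size, its consistency over contexts, and the overlap between libraries, with no test. Time of day, exercise, and sex did not enter the choice and were tested. The interactions of genotype with them were tested too, although the choice took consistency over contexts into account. All 7 genes passed the filter on low counts.

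All mice carried floxed alleles of Hif1a on both chromosomes, with loxP sites around the second exon, on a C57BL/6JBomTac background of 2 to 9 generations. HIF1α KO mice also carried Cre recombinase under the human α-skeletal actin promoter (HSA-Cre), which is active in muscle fibers, and their fl/fl littermates carried no Cre. Presence of the Cre transgene and loss of Hif1a can thus not be told apart. Mice ran on a treadmill for 60 min at up to 16 m/min with an incline of 5%, or received a sham treatment (sedentary), early in the light rest phase at ZT3 or early in the dark active phase at ZT15, where ZT counts hours from lights on, and muscle was taken 3 h later. Each of the 8 groups of genotype, time, and treatment held 4 males and 4 females, aged 12 to 18 weeks. The exercised HIF1α KO group at ZT3 was used with 7 mice, because the library of mouse 44 held 382 counts. The remaining 63 libraries, 31 HIF1α KO and 32 fl/fl, held 2359780 to 40377963 counts, with 3 under 5 M (mice 41, 42, and 48). A combination of time of day and treatment is called a context below, and levels are counts per 1 M counts of a library (CPM), with library sizes scaled by edgeR's TMM factors.

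Hif1a itself did not separate the genotypes at the level of the whole gene. Its counts ranged from 28.8 to 49.7 CPM (median 35.9) in HIF1α KO and from 25.9 to 57.3 CPM (median 34.96) in fl/fl, a log2 fold change of 0.0042 (SE 0.0492, 95% interval -0.094 to 0.10). This count covers the exons outside the deleted segment and the other cells of the tissue, so it checks little of the labels. Libraries were therefore set side by side by a score over 20 genes that are no members and lie further than 500 kb from them, those with the smallest p between genotypes. The score is the mean of centered log2 CPM over 5 genes that were higher and 15 that were lower in HIF1α KO. The latter entered with reversed sign. The 20 genes lie on 10 chromosomes, some of them close together, such as Ighg2c and Ighm on chromosome 12. Some share a chromosome with a member, such as Pde7a with Car3 on chromosome 3 and Sorbs2 with Dusp26 on chromosome 8. The genes of the score were picked under these same labels, so most libraries follow their label partly by construction. In 58 libraries the score followed the label, with 0.345 to 0.916 in HIF1α KO and -0.865 to -0.385 in fl/fl. In 5 libraries it did not. Of the libraries labelled fl/fl, mouse 7 (sedentary, ZT3) scored 0.796, mouse 8 (sedentary, ZT15) 0.400, and mouse 40 (sedentary, ZT15) 0.670. Of those labelled HIF1α KO, mouse 9 (exercised, ZT15) scored -0.544 and mouse 43 (sedentary, ZT15) -0.662. Hif1a in these 5 libraries lay between 29.8 and 44.4 CPM, inside the range of the other libraries of either label. All 5, called the discordant libraries, keep their label in the values below, results are also given without them, and why they stand apart was not tested. The score rests on the same contrast as the choice of the members, so leaving these libraries out enlarges a genotype difference partly by construction.

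HIF1α is the oxygen-labile subunit of a transcription factor that accumulates when oxygen is low, pairs with ARNT, and binds DNA at the core letters ACGTG or GCGTG. In muscle it is best known for raising genes of glucose uptake and glycolysis. The 7 genes belong to no single pathway. Car3 encodes a carbonic anhydrase, one of the enzymes that interconvert carbon dioxide and bicarbonate, and Plin3 a perilipin, a protein that coats lipid droplets. Aimp2 encodes a scaffold of the complex that holds several aminoacyl-tRNA synthetases together. Grk3 is a kinase that phosphorylates activated G protein-coupled receptors, and Dusp26 a dual-specificity phosphatase that acts on mitogen-activated protein kinases. Cdc42ep2 binds the small GTPase CDC42 and acts on septins and actin, and Mpp3 is a scaffold of the membrane-associated guanylate kinase (MAGUK) family found at cell junctions and polarity complexes.

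The upstream sequences of 3 members, Aimp2, Plin3, and Cdc42ep2, were at hand from RefSeq (GRCm38.p6). They are shown to let the core letters of HIF binding be seen beside the genes that were higher without HIF1α. Each run is the 250 bases before the annotated start, 5′ to 3′ on the gene's own strand, which is the minus strand for all 3, and capitals mark ACGTG or GCGTG on either strand (CACGT or CACGC when read on the printed strand). The windows are chr5:143909840-143910089 for Aimp2, chr17:56290512-56290761 for Plin3, and chr19:5924817-5925066 for Cdc42ep2.
Aimp2: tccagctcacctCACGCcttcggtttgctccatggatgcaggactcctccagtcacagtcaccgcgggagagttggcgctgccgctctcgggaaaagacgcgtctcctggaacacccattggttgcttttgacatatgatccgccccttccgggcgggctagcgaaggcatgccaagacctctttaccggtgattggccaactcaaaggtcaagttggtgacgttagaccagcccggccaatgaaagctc
Plin3: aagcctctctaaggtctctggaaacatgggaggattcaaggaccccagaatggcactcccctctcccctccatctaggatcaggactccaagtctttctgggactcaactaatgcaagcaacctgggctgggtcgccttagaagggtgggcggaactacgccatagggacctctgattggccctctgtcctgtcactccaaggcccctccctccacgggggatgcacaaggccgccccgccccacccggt
Cdc42ep2: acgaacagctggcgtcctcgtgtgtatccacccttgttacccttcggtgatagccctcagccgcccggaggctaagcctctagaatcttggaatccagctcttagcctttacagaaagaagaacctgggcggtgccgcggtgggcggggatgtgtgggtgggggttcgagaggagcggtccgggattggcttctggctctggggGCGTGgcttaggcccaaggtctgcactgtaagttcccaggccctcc
Aimp2 holds GCGTG once, on the strand opposite to the gene at position -238 from the start, and Cdc42ep2 holds it once on its own strand at position -46. The Plin3 window holds neither motif, and it lies inside the gene as GENCODE draws it, whose outermost start is further upstream. Among all 32851 windows of this length, 38.6% hold ACGTG or GCGTG on either strand, 28.2% hold GCGTG, 16.6% hold ACGTG, and 6.02% hold the longer E-box CACGTG, which contains ACGTG. Holding GCGTG is thus common, and binding at these letters was not measured.

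All 7 genes had a higher mean in HIF1α KO than in fl/fl, by 0.25 (Cdc42ep2) to 0.67 (Dusp26) on the log2 scale, or 1.19- to 1.59-fold, averaged over the 4 contexts. Each of the 28 log2 fold changes by member and context was above 0, which the choice of members favors; of all tested genes, 10.5% had a positive log2 fold change in every context. Of all tested genes, 4.68% were higher in HIF1α KO at an adjusted p under 0.1 in edgeR's quasi-likelihood test, and 0.171% were so in sedentary mice at ZT3, 0.873% in exercised mice at ZT3, 0.00656% in sedentary mice at ZT15, and 0.112% in exercised mice at ZT15. The plot of library values shows the 8 groups gene by gene. The size of the difference was steadiest over contexts for Aimp2 and Plin3, whose log2 fold changes spread over 0.16 and 0.21, and the other 5 members spread over 0.39 to 0.49. In bulk tissue, a change in the number of cells of a type and in RNA per cell cannot be told apart.

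**Figure D1:**
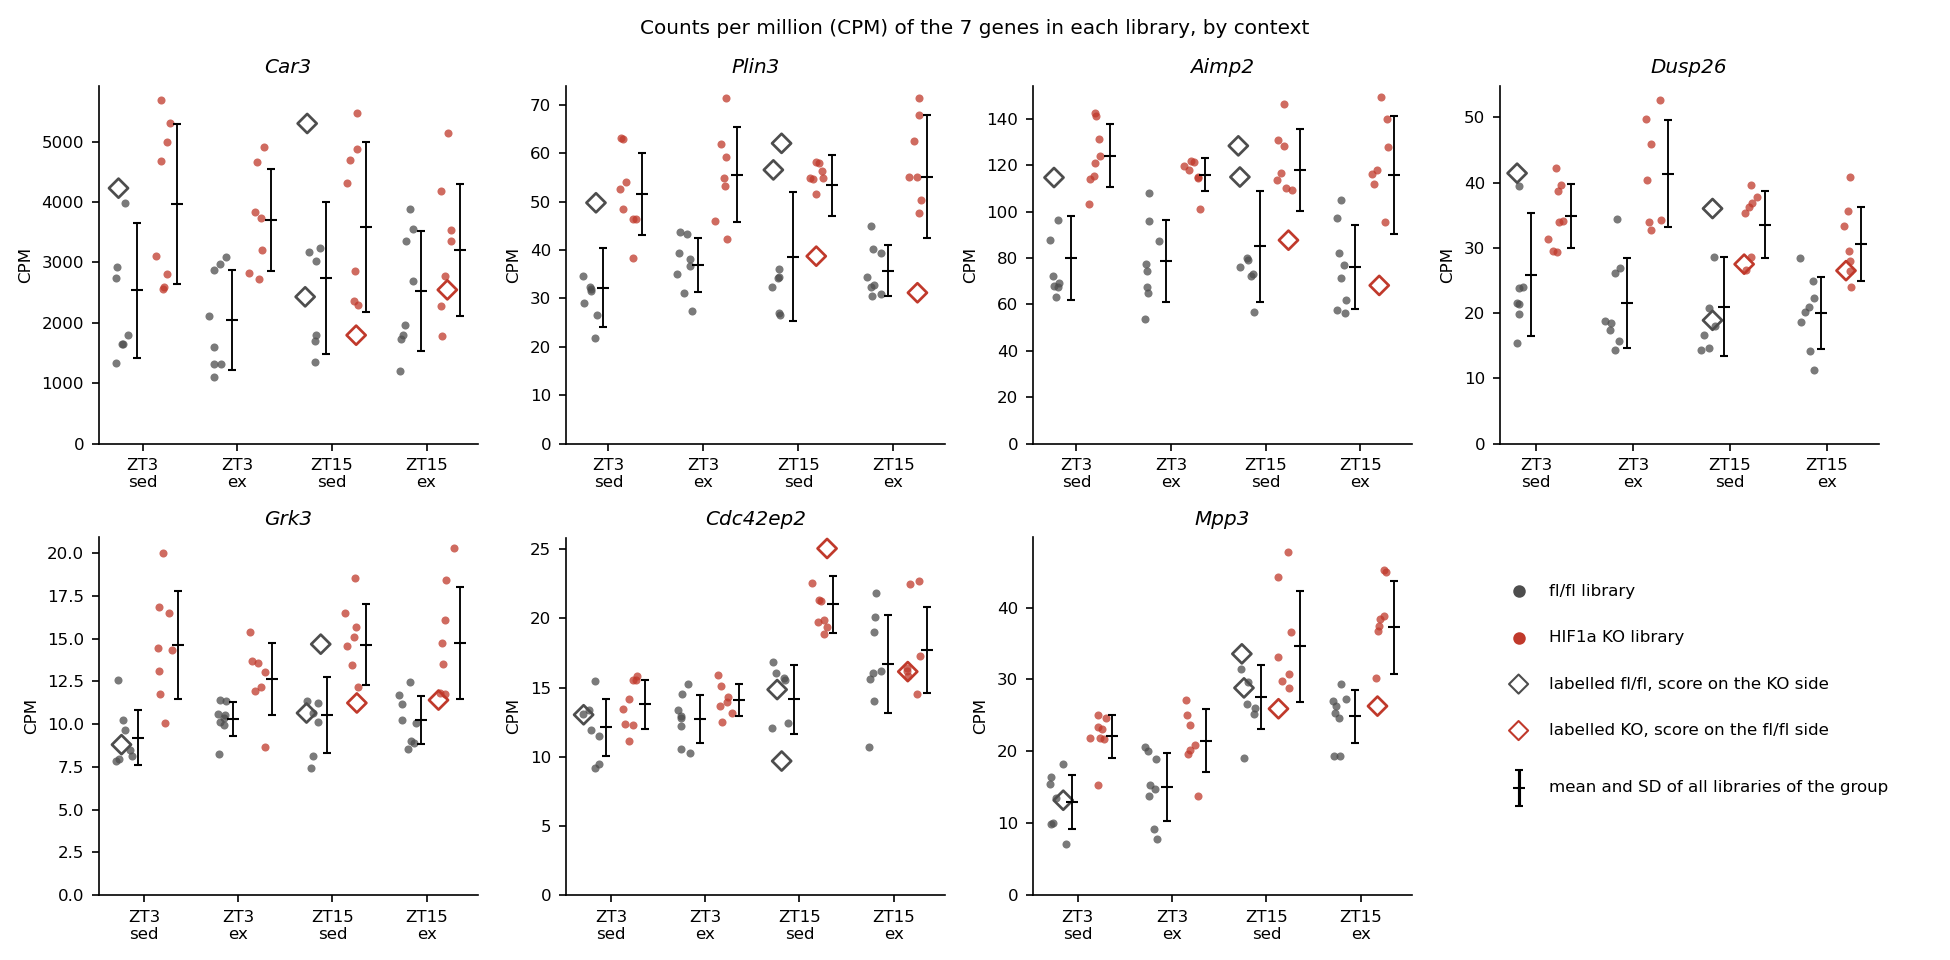
Level of each of the 7 genes in every library (CPM, linear axis from 0) in the 8 groups of genotype, time, and treatment, with 1 point a library, a bar at the group mean, and diamonds for the 5 libraries whose score goes against their label. HIF1α KO means lie above fl/fl means for each gene in each context, while the points of the genotypes overlap in every pair of gene and context except Cdc42ep2 in sedentary mice at ZT15.

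Car3 (ENSMUSG00000027559.5, GRCm38 chr3:14863512-14872523, plus strand) was by far the most abundant of the 7 in this muscle, with a mean of 1058 CPM per kilobase of summed exon length over all libraries, against 59.8 for Aimp2, the next. It averaged 3612 ± 1175 CPM (mean ± SD) over the 31 HIF1α KO libraries and 2467 ± 1041 CPM over the 32 fl/fl libraries. Car3 in sedentary muscle at ZT3 spanned 1328 to 4231 CPM (median 2266) in the 8 fl/fl libraries and 2559 to 5694 CPM (median 3892) in the 8 HIF1α KO libraries. Car3 in exercised muscle at ZT3 spanned 1104 to 3096 CPM (median 1852) in the 8 fl/fl libraries and 2734 to 4916 CPM (median 3732) in the 7 HIF1α KO libraries. At ZT3, 4 of 8 sedentary and 5 of 7 exercised HIF1α KO libraries lay above every fl/fl library of their context, and the groups overlapped in both contexts. For Car3 at ZT15, sedentary muscle held 1345 to 5303 CPM (median 2729) in the 8 fl/fl libraries and 1795 to 5473 CPM (median 3587) in the 8 HIF1α KO libraries. For Car3 at ZT15 after exercise, the values were 1209 to 3881 CPM (median 2333) in the 8 fl/fl libraries and 1786 to 5149 CPM (median 3065) in the 8 HIF1α KO libraries. At ZT15, 1 of 8 sedentary and 2 of 8 exercised HIF1α KO libraries lay above every fl/fl library of their context, and the groups overlapped more widely. Car3 thus had a log2 fold change between genotypes, averaged over the 4 contexts, of 0.58 (SE 0.0688, 95% interval 0.44 to 0.72). By context, Car3 differed by 0.68 in sedentary and 0.87 in exercised mice at ZT3, and 0.38 in sedentary and 0.41 in exercised mice at ZT15. For Car3 without the discordant libraries, the average was 0.68 (SE 0.0590, 95% interval 0.56 to 0.80), and the differences by context were 0.74 in sedentary and 0.86 in exercised mice at ZT3, and 0.63 in sedentary and 0.49 in exercised mice at ZT15. The highest fl/fl value at ZT15, 5303 CPM, was the library labelled fl/fl of mouse 40. For Car3, the genotype difference within the 4 blocks of 16 consecutive mouse numbers was 0.42 to 0.72 on the log2 scale, and 87.1% of the pairs of 1 HIF1α KO and 1 fl/fl library of the same context and sex had the higher value in HIF1α KO. Over all pairs, regardless of context and sex, that share was 75.4%, and Car3 also differed between the sexes. Among males, HIF1α KO libraries had 1786 to 3534 CPM (median 2734, n = 15) and fl/fl libraries 1104 to 2431 CPM (median 1651, n = 16). Among females, HIF1α KO libraries had 2546 to 5694 CPM (median 4693, n = 16) and fl/fl libraries 2112 to 5303 CPM (median 3131, n = 16). Within each sex, most HIF1α KO libraries thus lay above most fl/fl libraries.

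Plin3 (ENSMUSG00000024197.10, chr17:56277476-56292873, minus strand) averaged 53.9 ± 9.26 CPM (mean ± SD) over the 31 HIF1α KO libraries and 35.8 ± 8.60 CPM over the 32 fl/fl libraries, and 11.8 CPM per kilobase over all libraries. Plin3 in sedentary muscle at ZT3 spanned 21.8 to 49.8 CPM (median 31.7) in the 8 fl/fl libraries and 38.4 to 63.2 CPM (median 50.6) in the 8 HIF1α KO libraries. Plin3 in exercised muscle at ZT3 spanned 27.5 to 43.6 CPM (median 37.4) in the 8 fl/fl libraries and 42.4 to 71.4 CPM (median 54.8) in the 7 HIF1α KO libraries. At ZT3, 4 of 8 sedentary and 6 of 7 exercised HIF1α KO libraries lay above every fl/fl library of their context, and 1 library labelled fl/fl, of mouse 7, stood apart from its sedentary group at 49.8 CPM. For Plin3 at ZT15, sedentary muscle held 26.7 to 62.1 CPM (median 34.3) in the 8 fl/fl libraries and 38.7 to 58.3 CPM (median 54.9) in the 8 HIF1α KO libraries. For Plin3 at ZT15 after exercise, the values were 30.5 to 45.04 CPM (median 33.6) in the 8 fl/fl libraries and 31.2 to 71.4 CPM (median 55.04) in the 8 HIF1α KO libraries. At ZT15, 0 of 8 sedentary and 7 of 8 exercised HIF1α KO libraries lay above every fl/fl library of their context. The highest fl/fl values, 62.1 and 56.6 CPM, came from mice 8 and 40, and the lowest HIF1α KO values of the sedentary and exercised groups, 38.7 and 31.2 CPM, from mice 43 and 9. Plin3 thus had a log2 fold change between genotypes, averaged over the 4 contexts, of 0.59 (SE 0.0727, 95% interval 0.45 to 0.74). By context, Plin3 differed by 0.68 in sedentary and 0.60 in exercised mice at ZT3, and 0.47 in sedentary and 0.62 in exercised mice at ZT15. For Plin3 without the discordant libraries, the average was 0.73 (SE 0.0545, 95% interval 0.62 to 0.84), and the differences by context were 0.80 in sedentary and 0.59 in exercised mice at ZT3, and 0.81 in sedentary and 0.70 in exercised mice at ZT15. Plin3 then no longer overlapped between genotypes in 3 contexts, all but exercised mice at ZT3. For Plin3, the genotype difference within the 4 blocks of 16 consecutive mouse numbers was 0.43 to 0.75 on the log2 scale. The lowest was in the block that holds mice 7, 8, and 9, with a 95% interval of -0.0064 to 0.86. Of the pairs of 1 HIF1α KO and 1 fl/fl library of the same context and sex, 87.1% had the higher value in HIF1α KO.

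Aimp2 (ENSMUSG00000029610.13, chr5:143902704-143909847, minus strand) averaged 119 ± 16.99 CPM (mean ± SD) over the 31 HIF1α KO libraries and 79.9 ± 18.95 CPM over the 32 fl/fl libraries, and 59.8 CPM per kilobase over all libraries. The end of Aimp2 overlaps the end of Eif2ak1 on the other strand, and the strand setting of the counting is not given in the sources used here, so reads of the shared stretch cannot be told apart. Eif2ak1 itself differed between genotypes by -0.078 on the log2 scale (edgeR, adjusted p = 0.564). Aimp2 in sedentary muscle at ZT3 spanned 63.3 to 115 CPM (median 70.8) in the 8 fl/fl libraries and 103 to 142 CPM (median 123) in the 8 HIF1α KO libraries. Aimp2 in exercised muscle at ZT3 spanned 53.6 to 108 CPM (median 75.96) in the 8 fl/fl libraries and 101 to 122 CPM (median 118) in the 7 HIF1α KO libraries. At ZT3, 6 of 8 sedentary and 6 of 7 exercised HIF1α KO libraries lay above every fl/fl library of their context. For Aimp2 at ZT15, sedentary muscle held 56.8 to 128 CPM (median 77.5) in the 8 fl/fl libraries and 87.7 to 147 CPM (median 115) in the 8 HIF1α KO libraries. For Aimp2 at ZT15 after exercise, the values were 56.2 to 105 CPM (median 74.4) in the 8 fl/fl libraries and 68.2 to 149 CPM (median 117) in the 8 HIF1α KO libraries. At ZT15, 2 of 8 sedentary and 6 of 8 exercised HIF1α KO libraries lay above every fl/fl library of their context, and the highest fl/fl and lowest HIF1α KO values again came from libraries that go against their label, 128 CPM in mouse 40 and 68.2 CPM in mouse 9. Aimp2 thus had a log2 fold change between genotypes, averaged over the 4 contexts, of 0.57 (SE 0.0713, 95% interval 0.42 to 0.71). By context, Aimp2 differed by 0.63 in sedentary and 0.56 in exercised mice at ZT3, and 0.47 in sedentary and 0.60 in exercised mice at ZT15. For Aimp2 without the discordant libraries, the average was 0.68 (SE 0.0596, 95% interval 0.56 to 0.80), and the differences by context were 0.73 in sedentary and 0.56 in exercised mice at ZT3, and 0.74 in sedentary and 0.68 in exercised mice at ZT15. In both sedentary contexts, Aimp2 then no longer overlapped between genotypes. For Aimp2, the genotype difference within the 4 blocks of 16 consecutive mouse numbers was 0.36 to 0.74 on the log2 scale. The lowest was in the block that holds mice 7, 8, and 9, with a 95% interval of -0.041 to 0.76. Of the pairs of 1 HIF1α KO and 1 fl/fl library of the same context and sex, 91.1% had the higher value in HIF1α KO.

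Grk3 (ENSMUSG00000042249.11, chr5:112910482-113015791, minus strand) averaged 14.2 ± 2.78 CPM (mean ± SD) over the 31 HIF1α KO libraries and 10.1 ± 1.62 CPM over the 32 fl/fl libraries, and 1.39 CPM per kilobase over all libraries, the lowest of the 7 per length. Grk3 in sedentary muscle at ZT3 spanned 7.82 to 12.6 CPM (median 8.62) in the 8 fl/fl libraries and 10.04 to 19.98 CPM (median 14.4) in the 8 HIF1α KO libraries. Grk3 in exercised muscle at ZT3 spanned 8.24 to 11.4 CPM (median 10.4) in the 8 fl/fl libraries and 8.63 to 15.4 CPM (median 13.1) in the 7 HIF1α KO libraries. At ZT3, 6 of 8 sedentary and 6 of 7 exercised HIF1α KO libraries lay above every fl/fl library of their context, although the lowest exercised HIF1α KO library lay below the fl/fl median. For Grk3 at ZT15, sedentary muscle held 7.41 to 14.7 CPM (median 10.7) in the 8 fl/fl libraries and 11.2 to 18.5 CPM (median 14.8) in the 8 HIF1α KO libraries. For Grk3 at ZT15 after exercise, the values were 8.51 to 12.4 CPM (median 10.1) in the 8 fl/fl libraries and 11.4 to 20.3 CPM (median 14.1) in the 8 HIF1α KO libraries. At ZT15, 4 of 8 sedentary and 5 of 8 exercised HIF1α KO libraries lay above every fl/fl library of their context. Grk3 thus had a log2 fold change between genotypes, averaged over the 4 contexts, of 0.48 (SE 0.0614, 95% interval 0.36 to 0.60). By context, Grk3 differed by 0.67 in sedentary and 0.28 in exercised mice at ZT3, and 0.45 in sedentary and 0.52 in exercised mice at ZT15. For Grk3 without the discordant libraries, the average was 0.52 (SE 0.0614, 95% interval 0.40 to 0.65), and the differences by context were 0.68 in sedentary and 0.28 in exercised mice at ZT3, and 0.59 in sedentary and 0.55 in exercised mice at ZT15. In sedentary mice at ZT15, Grk3 then no longer overlapped. For Grk3, the genotype difference within the 4 blocks of 16 consecutive mouse numbers was 0.37 to 0.68 on the log2 scale, and 95.2% of the pairs of 1 HIF1α KO and 1 fl/fl library of the same context and sex had the higher value in HIF1α KO.

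Dusp26 (ENSMUSG00000039661.14, chr8:31089471-31097047, plus strand) averaged 34.9 ± 6.92 CPM (mean ± SD) over the 31 HIF1α KO libraries and 22.1 ± 7.47 CPM over the 32 fl/fl libraries, and 12.3 CPM per kilobase over all libraries. Dusp26 in sedentary muscle at ZT3 spanned 15.5 to 41.5 CPM (median 22.7) in the 8 fl/fl libraries and 29.4 to 42.3 CPM (median 34.03) in the 8 HIF1α KO libraries. Dusp26 in exercised muscle at ZT3 spanned 14.3 to 34.4 CPM (median 18.6) in the 8 fl/fl libraries and 32.7 to 52.7 CPM (median 40.4) in the 7 HIF1α KO libraries. At ZT3, 1 of 8 sedentary and 4 of 7 exercised HIF1α KO libraries lay above every fl/fl library of their context, and the highest sedentary fl/fl value was the library labelled fl/fl of mouse 7. For Dusp26 at ZT15, sedentary muscle held 14.3 to 36.03 CPM (median 18.5) in the 8 fl/fl libraries and 26.6 to 39.7 CPM (median 35.8) in the 8 HIF1α KO libraries. For Dusp26 at ZT15 after exercise, the values were 11.2 to 28.4 CPM (median 20.5) in the 8 fl/fl libraries and 24.05 to 40.9 CPM (median 28.7) in the 8 HIF1α KO libraries. At ZT15, 4 of 8 sedentary and 4 of 8 exercised HIF1α KO libraries lay above every fl/fl library of their context. Dusp26 thus had a log2 fold change between genotypes, averaged over the 4 contexts, of 0.67 (SE 0.0890, 95% interval 0.49 to 0.84). By context, Dusp26 differed by 0.44 in sedentary and 0.93 in exercised mice at ZT3, and 0.70 in sedentary and 0.60 in exercised mice at ZT15. For Dusp26 without the discordant libraries, the average was 0.75 (SE 0.0862, 95% interval 0.58 to 0.92), and the differences by context were 0.55 in sedentary and 0.92 in exercised mice at ZT3, and 0.90 in sedentary and 0.63 in exercised mice at ZT15. Dusp26 still overlapped between genotypes in each context. For Dusp26, the genotype difference within the 4 blocks of 16 consecutive mouse numbers was 0.29 to 0.99 on the log2 scale. The lowest had a 95% interval of -0.044 to 0.62. Of the pairs of 1 HIF1α KO and 1 fl/fl library of the same context and sex, 89.5% had the higher value in HIF1α KO. The spread of Dusp26 within groups was 0.420 in fl/fl and 0.233 in HIF1α KO (SD of log2 CPM after removal of group and sex), a difference that was not tested.

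Cdc42ep2 (ENSMUSG00000045664.5, chr19:5915636-5924816, minus strand) averaged 16.7 ± 3.64 CPM (mean ± SD) over the 31 HIF1α KO libraries and 13.9 ± 3.02 CPM over the 32 fl/fl libraries, the smallest ratio of the 7, with 4.49 CPM per kilobase over all libraries. Cdc42ep2 in sedentary muscle at ZT3 spanned 9.17 to 15.5 CPM (median 12.5) in the 8 fl/fl libraries and 11.1 to 15.8 CPM (median 13.8) in the 8 HIF1α KO libraries. Cdc42ep2 in exercised muscle at ZT3 spanned 10.2 to 15.2 CPM (median 12.9) in the 8 fl/fl libraries and 12.5 to 15.9 CPM (median 13.9) in the 7 HIF1α KO libraries. At ZT3, 3 of 8 sedentary and 1 of 7 exercised HIF1α KO libraries lay above every fl/fl library of their context. For Cdc42ep2 at ZT15, sedentary muscle held 9.69 to 16.9 CPM (median 15.2) in the 8 fl/fl libraries and 18.8 to 25.1 CPM (median 20.6) in the 8 HIF1α KO libraries. For Cdc42ep2 at ZT15 after exercise, the values were 10.7 to 21.8 CPM (median 16.1) in the 8 fl/fl libraries and 14.5 to 22.7 CPM (median 16.3) in the 8 HIF1α KO libraries. At ZT15, 8 of 8 sedentary and 2 of 8 exercised HIF1α KO libraries lay above every fl/fl library of their context. This was the one pair of gene and context without overlap among all libraries, of 28, and for the same context 0.0262% of all tested genes were separated with HIF1α KO higher. Cdc42ep2 thus had a log2 fold change between genotypes, averaged over the 4 contexts, of 0.25 (SE 0.0572, 95% interval 0.13 to 0.36). By context, Cdc42ep2 differed by 0.19 in sedentary and 0.15 in exercised mice at ZT3, and 0.56 in sedentary and 0.090 in exercised mice at ZT15. For Cdc42ep2 without the discordant libraries, the average was 0.23 (SE 0.0584, 95% interval 0.11 to 0.34), and the differences by context were 0.20 in sedentary and 0.14 in exercised mice at ZT3, and 0.44 in sedentary and 0.12 in exercised mice at ZT15. Of the 5 libraries, 1 had a Cdc42ep2 value nearer to the mean log2 CPM of the other genotype in its context and sex. For Cdc42ep2, the genotype difference within the 4 blocks of 16 consecutive mouse numbers was 0.13 to 0.48 on the log2 scale. The 95% intervals were -0.11 to 0.38 in block 2, the lowest, and -0.038 to 0.60 in block 3. Of the pairs of 1 HIF1α KO and 1 fl/fl library of the same context and sex, 75.8% had the higher value in HIF1α KO. By context and sex, Cdc42ep2 was higher in HIF1α KO in 7 of 8 cells of the design and lower by 0.23 on the log2 scale in exercised females at ZT15.

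Mpp3 (ENSMUSG00000052373.14, chr11:101999652-102028461, minus strand) averaged 29.1 ± 9.07 CPM (mean ± SD) over the 31 HIF1α KO libraries and 20.1 ± 7.45 CPM over the 32 fl/fl libraries, and 2.61 CPM per kilobase over all libraries. Mpp3 in sedentary muscle at ZT3 spanned 7.15 to 18.2 CPM (median 13.3) in the 8 fl/fl libraries and 15.3 to 24.98 CPM (median 22.4) in the 8 HIF1α KO libraries. Mpp3 in exercised muscle at ZT3 spanned 7.74 to 20.6 CPM (median 14.99) in the 8 fl/fl libraries and 13.7 to 27.2 CPM (median 20.9) in the 7 HIF1α KO libraries. At ZT3, 7 of 8 sedentary and 4 of 7 exercised HIF1α KO libraries lay above every fl/fl library of their context. For Mpp3 at ZT15, sedentary muscle held 19.1 to 33.6 CPM (median 27.7) in the 8 fl/fl libraries and 25.9 to 47.7 CPM (median 31.9) in the 8 HIF1α KO libraries. For Mpp3 at ZT15 after exercise, the values were 19.4 to 29.4 CPM (median 25.8) in the 8 fl/fl libraries and 26.3 to 45.2 CPM (median 37.9) in the 8 HIF1α KO libraries. At ZT15, 3 of 8 sedentary and 7 of 8 exercised HIF1α KO libraries lay above every fl/fl library of their context, and the fl/fl values at ZT15 reached the HIF1α KO values at ZT3. Mpp3 thus had a log2 fold change between genotypes, averaged over the 4 contexts, of 0.55 (SE 0.0734, 95% interval 0.41 to 0.70). By context, Mpp3 differed by 0.78 in sedentary and 0.54 in exercised mice at ZT3, and 0.33 in sedentary and 0.56 in exercised mice at ZT15. For Mpp3 without the discordant libraries, the average was 0.60 (SE 0.0751, 95% interval 0.45 to 0.75), and the differences by context were 0.81 in sedentary and 0.53 in exercised mice at ZT3, and 0.46 in sedentary and 0.61 in exercised mice at ZT15. In 1 context, exercised mice at ZT15, Mpp3 then no longer overlapped between genotypes. For Mpp3, the genotype difference within the 4 blocks of 16 consecutive mouse numbers was 0.39 to 0.81 on the log2 scale, and 89.5% of the pairs of 1 HIF1α KO and 1 fl/fl library of the same context and sex had the higher value in HIF1α KO.

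**Figure D2:**
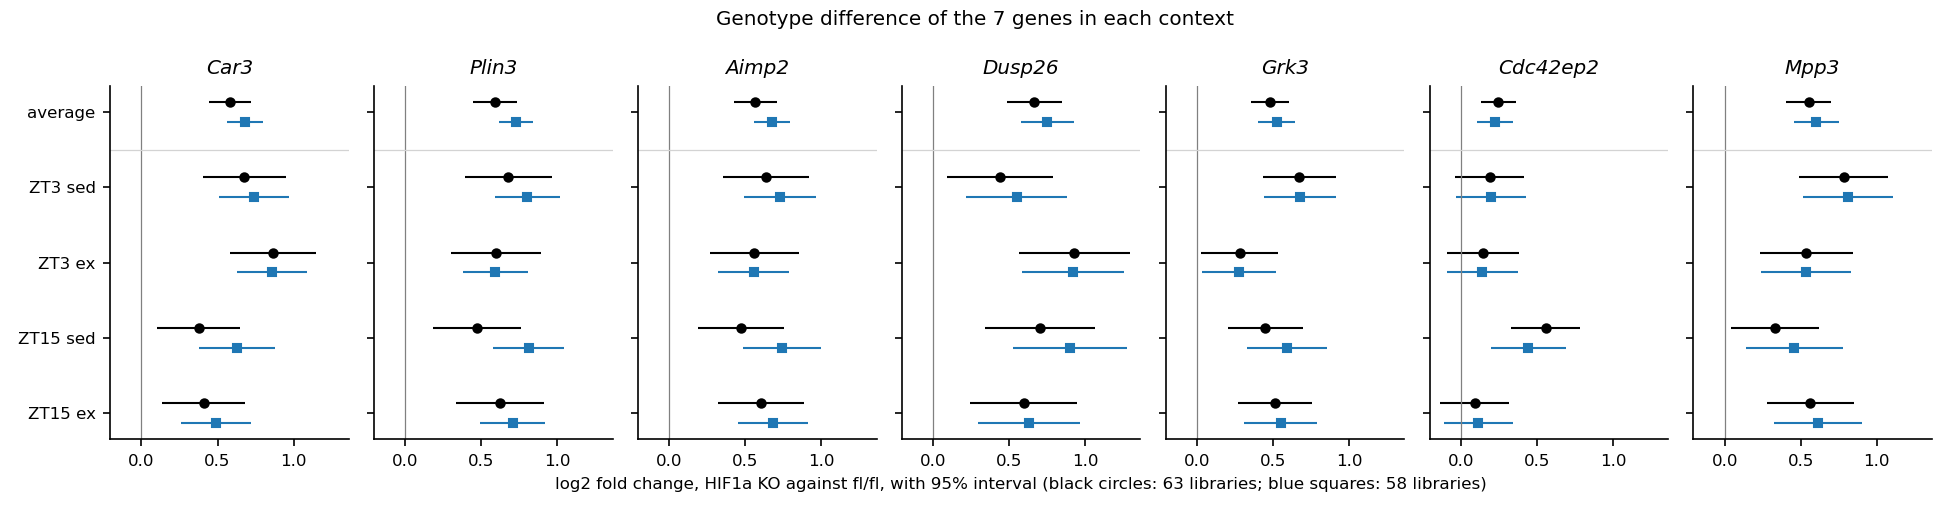
Log2 fold change of each gene, HIF1α KO against fl/fl, with 95% intervals, in each of the 4 contexts and averaged over them, for all 63 libraries and for the 58 without the libraries that go against their label. All estimates lie above 0, from 0.09 for Cdc42ep2 in exercised mice at ZT15 to 0.93 for Dusp26 in exercised mice at ZT3.

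The members did not follow the 5 discordant libraries alike. A value was counted as nearer to the other genotype by its log2 CPM. It had to lie closer to the mean log2 CPM of that genotype than to that of its own label. The means were taken among the other libraries of the same context and sex. This count was not made over all tested genes, and a gene alike in both genotypes would also be nearer to the other in some libraries. The 5 libraries were picked by a score from the contrast that chose the members, so high counts are partly built in. Car3, Plin3, and Aimp2 were nearer to the other genotype in 5 of 5 libraries, Mpp3 in 3, Dusp26 and Grk3 in 2 each, and Cdc42ep2 in 1, or 23 of 35 values in all. For example, the library labelled HIF1α KO of mouse 9 held 68.2 CPM of Aimp2, with means of 120.5 in the 3 other HIF1α KO and 84.01 in the 4 fl/fl exercised females at ZT15. The library labelled fl/fl of mouse 40 held 56.6 CPM of Plin3, with means of 54.4 in the 4 HIF1α KO and 28.6 in the 3 other fl/fl sedentary females at ZT15. By contrast, the library labelled HIF1α KO of mouse 43 held 25.1 CPM of Cdc42ep2, above the mean of 20.1 of the 3 other HIF1α KO sedentary males at ZT15. Across all 28 pairs of gene and context, genotypes were separated in 1 with all libraries and in 8 without the 5, which were Plin3 and Aimp2 in sedentary mice at ZT3, Plin3, Aimp2, Grk3, and Cdc42ep2 in sedentary mice at ZT15, and Plin3 and Mpp3 in exercised mice at ZT15. In these contexts, 0.0394% (sedentary, ZT3), 0.171% (sedentary, ZT15), and 0.0394% (exercised, ZT15) of all tested genes were separated in the same direction. The share of pairs of libraries of the same context and sex with the higher value in HIF1α KO rose from 87.1% to 98.1% for Plin3, from 91.1% to 99.05% for Aimp2, and from 75.8% to 76.2% for Cdc42ep2.

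**Figure D3:**
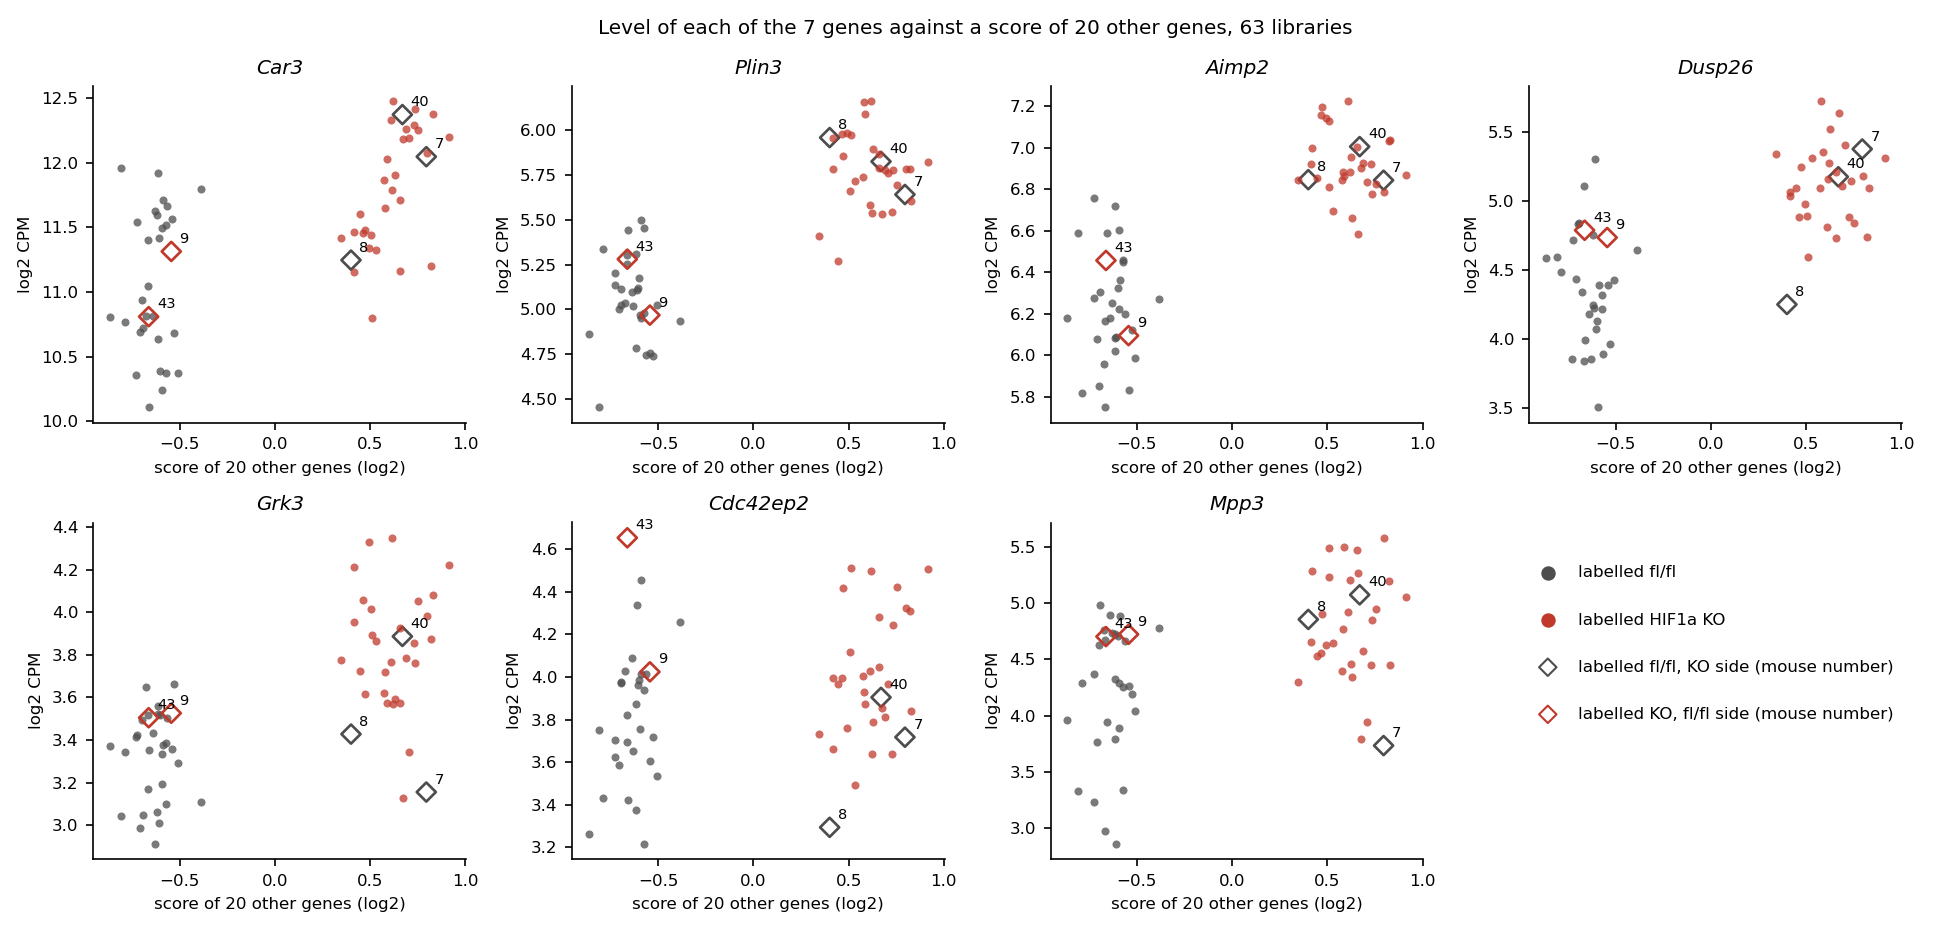
Log2 CPM of each gene against the score of the 20 other genes (log2) in the 63 libraries, colored by labelled genotype, with numbered diamonds for the 5 libraries whose score lies on the other genotype's side. For Plin3 and Aimp2 the diamonds lie with the genotype of their score, and for Cdc42ep2 most do not. The plot does not separate context or sex, and for Car3 the points of the genotypes overlap widely in it.

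Time of day changed 2 of the 7 genes in edgeR's test, Mpp3 and Cdc42ep2, both higher in the dark phase at ZT15, among a background of 8.02% of all tested genes in either direction. Mpp3, the junction scaffold, ranged from 7.15 to 27.2 CPM (median 18.9) in the 31 libraries at ZT3 and from 19.1 to 47.7 CPM (median 29.5) in the 32 at ZT15. The rise was 1.77-fold averaged over genotype and treatment (log2 difference 0.82, SE 0.0739, adjusted p = 2.36e-13). It passed the test in each of the 4 combinations of genotype and treatment, in which 1.88%, 1.18%, 0.479%, and 0.663% of all tested genes passed in either direction, with log2 differences of 1.11 in sedentary and 0.75 in exercised fl/fl mice and of 0.66 and 0.78 in HIF1α KO mice (adjusted p = 8.85e-07, 0.00293, 0.00984, and 0.00350). Cdc42ep2, the CDC42 effector, ranged from 9.17 to 15.9 CPM (median 13.2) at ZT3 and from 9.69 to 25.1 CPM (median 16.3) at ZT15. Its rise was 1.31-fold (log2 difference 0.39, SE 0.0573, adjusted p = 9.92e-07), and within combinations it passed in exercised fl/fl mice (log2 difference 0.40, SE 0.115, adjusted p = 0.0926) and in sedentary HIF1α KO mice (log2 difference 0.60, SE 0.112, adjusted p = 0.00110). In the other 2 combinations the log2 difference of Cdc42ep2 was 0.23 (adjusted p = 0.314) and 0.34 (adjusted p = 0.240). Levels overlapped between the times for both genes. Without the 5 discordant libraries, the log2 differences were 0.85 for Mpp3 and 0.41 for Cdc42ep2. Dusp26 was -0.23 on the log2 scale at ZT15 against ZT3 and did not pass the test (adjusted p = 0.138). Adding the block of mouse numbers to the model brought it past the threshold (adjusted p = 0.0590), and so did leaving out mice 41, 42, and 48 (adjusted p = 0.0992). The other 4 members differed by -0.0075 to 0.11 on the log2 scale, none past the test.

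Exercise 3 h before sampling changed none of the 7 genes at an adjusted p under 0.1 in edgeR, and none in DESeq2, among a background of 2.84% of all tested genes. At an unadjusted p under 0.05 there was 1, Car3 (log2 difference -0.15, SE 0.0687, adjusted p = 0.357). Car3 ranged from 1328 to 5694 CPM (median 2895) in the 32 sedentary and from 1104 to 5149 CPM (median 2827) in the 31 exercised libraries. The 95% intervals of the exercise difference lay within -0.29 and 0.20 on the log2 scale for all 7 genes. Plin3, the lipid droplet protein, was at 0.059 with all libraries and at 0.17 without the 5 discordant ones (adjusted p = 0.103).

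Whether the genotype difference itself depended on time of day, exercise, or sex was tested by interaction terms, and none passed for any member in edgeR or in DESeq2. The background of all tested genes was 0% for the interactions with time and with exercise and 0.0459% for that with sex. At an unadjusted p under 0.05 there was 1 member for time, 1 for exercise, and 2 for sex. For Car3, the genotype difference was -0.38 on the log2 scale at ZT15 relative to ZT3 (SE 0.137, adjusted p = 0.981). Without the 5 libraries this was -0.24 (adjusted p = 0.9997). For Cdc42ep2, it was -0.25 in exercised relative to sedentary mice (SE 0.114, adjusted p = 0.9999). In males relative to females, the genotype difference was 0.27 larger on the log2 scale for Car3 and 0.24 larger for Cdc42ep2 (adjusted p = 0.441 and 0.431). The 95% intervals of the 21 terms reached from -0.65 to 0.57 on the log2 scale, so these data do not show that the genotype difference was alike in all contexts.

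Sex changed 3 of the 7 genes, among a background of 25.1% of all tested genes in either direction, and the gene that differed most was the carbonic anhydrase. Car3 was 0.531-fold in males relative to females (log2 difference -0.91, SE 0.0694, adjusted p = 3.09e-17). Female libraries held 2112 to 5694 CPM (median 3859) and male libraries 1104 to 3534 CPM (median 1805), and the sexes overlapped. HIF1α KO males, with 2635 ± 483 CPM (SD, n = 15), lay below fl/fl females, with 3325 ± 748 CPM (SD, n = 16), on average, and their values overlapped. Mpp3 was higher in males (log2 difference 0.24, SE 0.0736, adjusted p = 0.0152), and so was Grk3 (log2 difference 0.15, SE 0.0614, adjusted p = 0.0808). Grk3 ranged from 7.82 to 20.3 CPM (median 12.1) in males and from 7.41 to 18.5 CPM (median 11.4) in females, and Mpp3 from 13.5 to 44.9 CPM (median 24.98) and from 7.15 to 47.7 CPM (median 22.8). The calls of Grk3 and Mpp3 were small beside the spread. Neither passed in edgeR with a slow-fiber score as a covariate (adjusted p = 0.404 and 0.191). That score is the mean of centered log2 CPM over 8 slow-fiber markers. It was positive in most females and negative in most males, so it is not independent of sex. Grk3 also missed the threshold in 4 other settings, with adjusted p up to 0.404 over the alternatives, among them the test of DESeq2. The other 4 members differed between the sexes by -0.15 to 0.085 on the log2 scale.

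**Figure D4:**
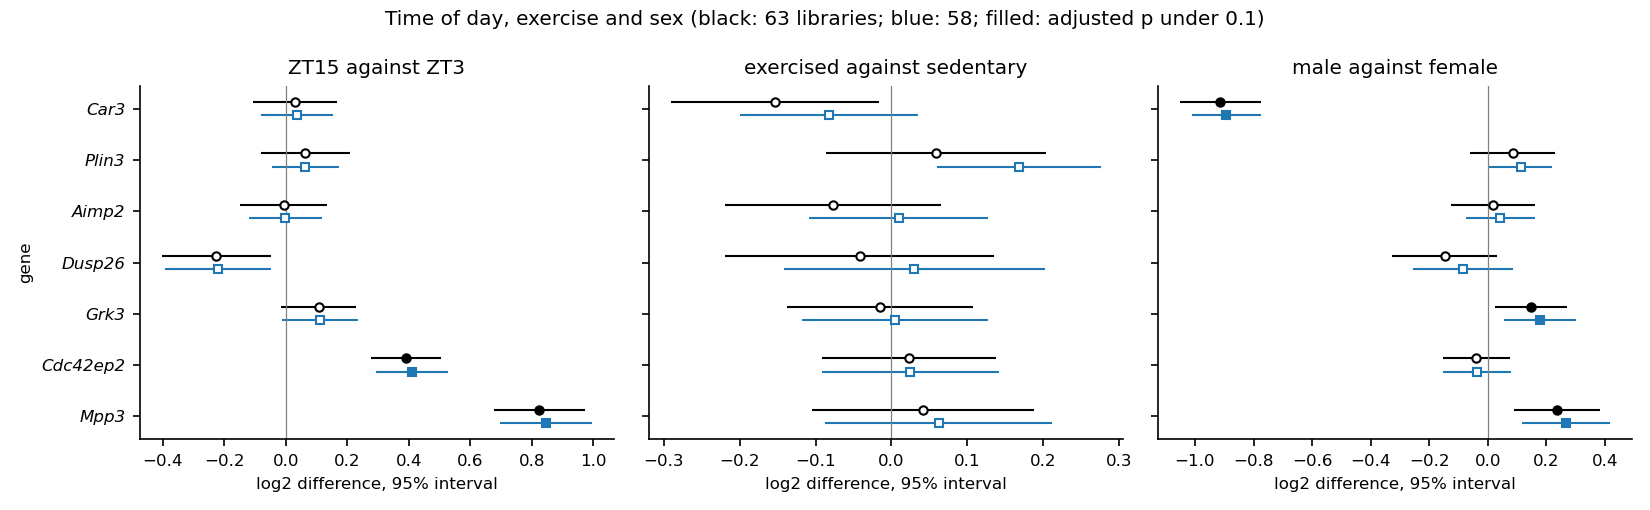
Log2 differences of each gene with 95% intervals for time of day (ZT15 against ZT3), exercise (exercised against sedentary), and sex (male against female). Estimates are shown for all 63 libraries and for the 58 without the libraries that go against their label. Filled points mark an adjusted p under 0.1. In both sets, Mpp3 and Cdc42ep2 pass for time, and Car3, Mpp3, and Grk3 pass for sex, while no gene passes for exercise.

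Relatives and partners of the 7 genes were compared between genotypes in the same fit. Of 126 genes in 8 lists, 106 were tested, 6 rose and 5 fell in HIF1α KO in the average over contexts, so that 10.4% changed in either direction, beside 8.26% of all tested genes. Among the carbonic anhydrases other than Car3, 2 of 10 tested rose, the cytosolic Car7 (log2 fold change 0.44, adjusted p = 0.0512) and Car11 (log2 fold change 0.25, adjusted p = 0.0512), which encodes a protein without the catalytic activity of the family. Car9, a membrane-bound carbonic anhydrase and a classic HIF1 target, fell (log2 fold change -0.53, adjusted p = 0.0785). Both Car9 and Car7 were rare, with Car9 at 0.524 ± 0.322 CPM in HIF1α KO and 0.738 ± 0.373 CPM in fl/fl (SD, n = 31 and 32) and Car7 at 1.21 ± 0.502 CPM in HIF1α KO and 0.865 ± 0.347 CPM in fl/fl. The median log2 fold change of the 10 was 0.11, beside -0.0028 for all tested genes. None of the 16 tested lipid droplet proteins other than Plin3 passed, with a median of 0.032. In the multi-tRNA-synthetase complex, which Aimp2 holds together, 2 of 10 rose, the scaffold Aimp1 (log2 fold change 0.16, adjusted p = 0.0881) and the lysyl-tRNA synthetase Kars (log2 fold change 0.11, adjusted p = 0.0711), both by far less than Aimp2. Of the 12 other cytosolic aminoacyl-tRNA synthetases, 1 rose, the glycyl-tRNA synthetase Gars (log2 fold change 0.14, adjusted p = 0.0155). None of 22 tested dual-specificity phosphatases other than Dusp26 passed. Of the 10 tested genes for receptor kinases, arrestins, and adrenergic receptors, 1 fell and the α1A-adrenergic receptor Adra1a rose (log2 fold change 0.31, adjusted p = 0.0799). Of 13 CDC42 effectors and septins, the septin Sept8 fell (log2 fold change -0.15, adjusted p = 0.0747). Of 13 MAGUK and LIN7 polarity proteins other than Mpp3, 2 fell, Mpp5 (log2 fold change -0.21, adjusted p = 0.00492) and Cask (log2 fold change -0.20, adjusted p = 0.00523), opposite to Mpp3, and none rose.

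Without the 5 discordant libraries, 5 of these genes rose and 4 fell of 107 tested, beside 7.7% of all tested genes in either direction. Aimp1, Adra1a, and Sept8 no longer passed (adjusted p = 0.173, 0.114, and 0.108), and Plin2, another perilipin of lipid droplets, passed with a log2 fold change of 0.15 (adjusted p = 0.0523). The log2 fold changes of Mpp5 and Cask were -0.27 and -0.23, and that of Car9 was -0.56.

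The genes around the members on the chromosome were looked at within 500 kb. Of the neighbors tested, 6 lay around Car3, 33 around Plin3, 14 around Aimp2, 5 around Dusp26, 2 around Grk3, 51 around Cdc42ep2, and 24 around Mpp3, and 5 of these 135 rose in HIF1α KO and none fell. That is 3.70% of the neighbors, beside 4.68% of all tested genes that rose. Pms2 (chr5:143909964-143933968), a mismatch repair gene that starts just upstream of Aimp2 on the opposite strand, rose (log2 fold change 0.30, adjusted p = 0.00238), and the upstream sequence printed for Aimp2 covers the start of Pms2. Tti2 rose beside Dusp26 (log2 fold change 0.16, adjusted p = 0.0630), the endonuclease gene Mus81 (log2 fold change 0.21, adjusted p = 0.0167) and the antisense gene Gm42067 (log2 fold change 0.36, adjusted p = 0.0443) beside Cdc42ep2, and 2410015M20Rik beside Plin3 (log2 fold change 0.25, adjusted p = 0.0661). None passed around Car3, Grk3, or Mpp3. Without the 5 discordant libraries 2410015M20Rik no longer passed (adjusted p = 0.109) and the other 4 did, Pms2 with 0.34. Counts of Gm42067 and other antisense genes are uncertain, because the strand setting is not given in the sources used here.

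Whether the members varied together from mouse to mouse was examined in log2 CPM after removal of group and sex, over 21 pairs of members. With all 63 libraries, 3 pairs correlated by both Pearson's r and Spearman's rho at an adjusted p under 0.05. They were Plin3 with Aimp2 (Pearson's r 0.49, Spearman's rho 0.36, adjusted permutation p = 8.40e-04 and 0.0311), Car3 with Aimp2 (Pearson's r 0.49, Spearman's rho 0.39, adjusted permutation p = 8.40e-04 and 0.0155), and Car3 with Dusp26 (Pearson's r 0.41, Spearman's rho 0.40, adjusted permutation p = 0.00427 and 0.0155). Leaving out the 2 libraries farthest from the median of the first gene gave r of 0.37, 0.44, and 0.39. Within the 4 blocks of 16 mouse numbers, r was 0.71, 0.11, 0.58, and 0.62 for the first pair, 0.62, 0.53, 0.72, and 0.065 for the second, and 0.56, 0.19, 0.0021, and 0.54 for the third. Without the 5 libraries that go against their label, none of the 21 pairs passed by both measures, and r was -0.0020 for Plin3 with Aimp2, 0.13 for Car3 with Aimp2, and 0.27 for Car3 with Dusp26. Aimp2 and Dusp26 then had r = -0.41 (adjusted permutation p = 0.0351) and rho = -0.34 (adjusted permutation p = 0.175).

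**Figure D5:**
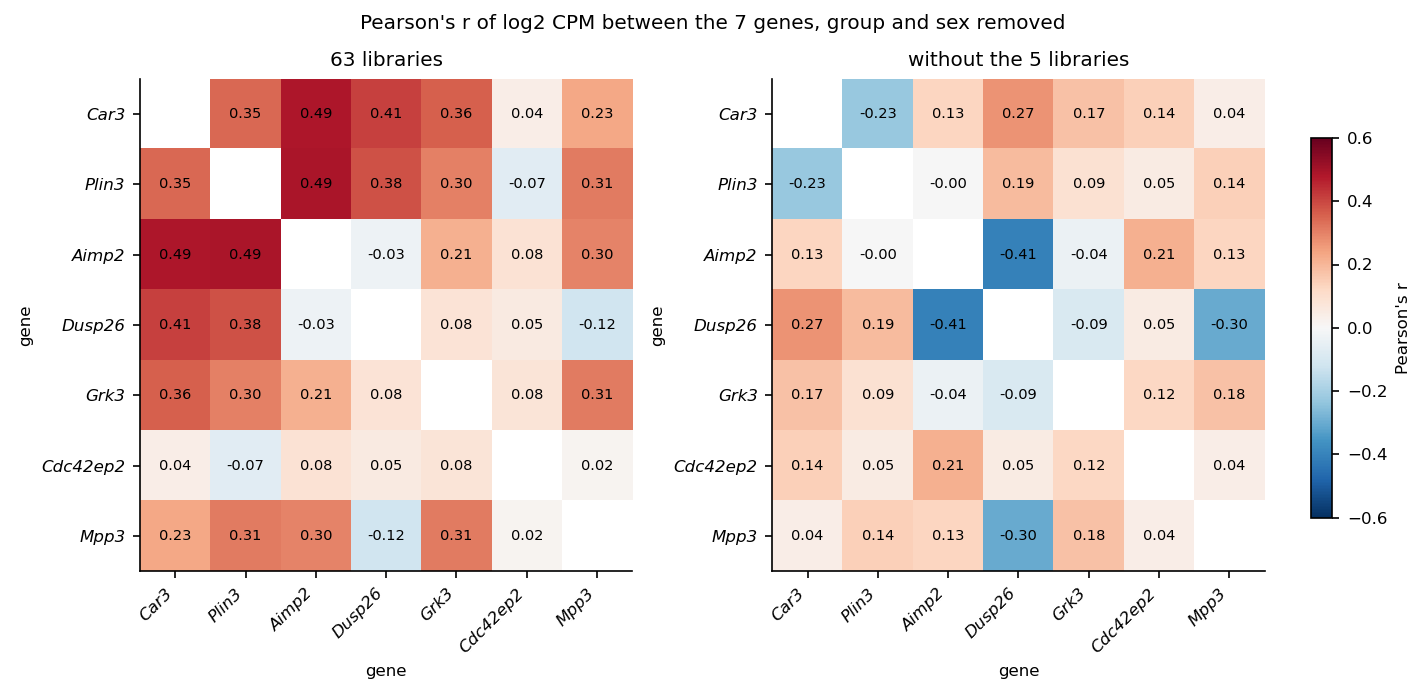
Pearson correlation of log2 CPM between the 7 genes, after removal of group and sex, with r printed in each cell. Values are shown over all 63 libraries and over the 58 without the libraries that go against their label. From all libraries to the 58, r goes from 0.49 to -0.0020 for Plin3 with Aimp2 and from 0.49 to 0.13 for Car3 with Aimp2.

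For each member, the 3 tested genes with the closest pattern from mouse to mouse are given by Pearson's r of the same residuals, as a description over libraries that share their scaling, and 2 results are set side by side, for all 63 libraries and for the 58. Dusp26 kept 2 of its 3 companions, Hadha (r = 0.68 and 0.74), the α subunit of the mitochondrial trifunctional protein of fatty acid oxidation, and the mitochondrial carrier Slc25a34 (r = 0.61 and 0.68), beside Gpam, an acyltransferase of glycerolipid synthesis, with all libraries (r = 0.61). Plin3 was closest to Gm11967 (r = 0.62) with all libraries and to Cpt2, the carnitine palmitoyltransferase of the inner mitochondrial membrane (r = 0.67), without the 5. Mpp3 kept Tas1r1 (r = 0.57 and 0.57) and Smad3, a mediator of TGF-β signals (r = 0.51 and 0.55). Car3 was closest to Pla2g5, Pdlim7, and Pcyox1 (r = 0.63, 0.60, and 0.59) with all libraries, and to Kazald1, Ampd1, and Ces1d (r = 0.72, 0.72, and 0.71) without the 5. Aimp2 was closest to Ift122 (r = 0.71) and to the immunoglobulin genes Ighg2c and Ighm (r = 0.65 and 0.63), and without the 5 to Pgam2, the muscle phosphoglycerate mutase (r = 0.70), Cd55, and Atp6ap1. Ighm and Ighg2c are also 2 of the 20 genes of the score. Counts of immunoglobulin and Gm genes are uncertain, because near-identical copies can share reads. Grk3 was closest to Gm12708, A930033H14Rik, and Gm10800 (r = 0.53, 0.51, and 0.49) and then to Chd7, Smpd4, and Pknox2 (r = 0.55, 0.52, and 0.51). Cdc42ep2 was closest to G0s2, Mrpl4, and Tspan31 (r = 0.55, 0.52, and 0.50) and then to Knop1, Snx3, and Arl2bp (r = 0.54, 0.53, and 0.52). For Car3, Aimp2, Grk3, and Cdc42ep2 the sets of 3 thus had no gene in common.

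Markers of the other cells in the tissue were compared in the same contrast, since Car3 is also abundant in slow fibers and fat cells and Plin3 is widespread. The 5 muscle fiber markers summed to 83062 to 142050.0 CPM in HIF1α KO and 75299.8 to 144330.0 CPM in fl/fl. None of these or of the 8 slow-fiber, 7 adipocyte, 5 blood, 4 macrophage, or 4 endothelial markers passed between genotypes. The summed slow-fiber markers ranged over 391.8 to 3899 CPM in HIF1α KO and 359.8 to 2460.4 CPM in fl/fl, and the summed adipocyte markers over 159 to 529 CPM in HIF1α KO and 148 to 609.9 CPM in fl/fl. Car3 differed by 0.58 on the log2 scale when the slow-fiber score was added to the model and by 0.58 with the adipocyte score. Of 5 Schwann cell markers, 3 were lower in HIF1α KO, among them Prx (-0.42) and Mbp (-0.44), with sums of 33.8 to 157 CPM in HIF1α KO and 38.7 to 181 CPM in fl/fl. Of 6 fibroblast and tendon markers, Pdgfra was lower (-0.12) and Scx higher (0.34), with sums of 723 to 1935 CPM in HIF1α KO and 683 to 2007 CPM in fl/fl, and of 2 satellite cell markers Myf5 was higher (0.35), with sums of 1.62 to 4.84 CPM in HIF1α KO and 0 to 4.47 CPM in fl/fl. The part of these cells in the genotype difference of the 7 genes was not tested. The 5 lymphocyte markers were near 0 in all libraries, with sums of 0 to 0.713 CPM in HIF1α KO and 0 to 0.408 CPM in fl/fl.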

How the data were processed

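RNA of gastrocnemius muscle from 64 mice was sequenced, and the deposited values are raw counts per gene, which the authors made with STAR and featureCounts on mm10, per the labels and the submitters' processing notes (versions and strand setting are not given in the sources used here). Of 55401 gene identifiers, 55141 matched GENCODE M21 (GRCm38). The 63 libraries were fitted in R 4.3.3 with edgeR 4.0.16 (filterByExpr with a minimum count of 10, TMM, robust quasi-likelihood, design of group plus sex), with Benjamini-Hochberg adjustment over 15241 genes and a threshold of 0.1. The fit was tested on simulated counts. With 2359780 to 40377963 counts per library, 1 CPM stood for 2.36 to 40.4 counts before the TMM scaling of library sizes. The p-values of the fit set a difference against the spread between mice. Correlations used 100000 shuffles, two-sided. DESeq2 1.42.0 and other scalings, filters, and covariates were alternatives, and leaving out the 5 discordant libraries was chosen after seeing the data. A block is 16 consecutive mouse numbers, which the labels do not call a batch.

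The members and lists were chosen with earlier results of these data known. Genes named are the members, Hif1a, list genes and neighbors within 500 kb past the threshold, the 3 genes most correlated with each member, markers beside a result, and, after their values were seen, Eif2ak1, Plin2, and the 3 closest genes without the 5 libraries. The closest paralog by protein identity was not used here. A few genes that this rule names are not reported here.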

Additional observations from a re-analysis of the deposited data

Results flagged for a closer look

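In the 56 groups of 7 or 8 libraries, by member, context, and genotype, 5 held a library far from the others of its group by Dixon's ratio, and chance alone sets about 1 in 20 groups apart. Plin3 in the library labelled HIF1α KO of mouse 43 (sedentary, ZT15) was 38.7 CPM, with 51.7 CPM as the nearest value of its group. Plin3 in the library labelled fl/fl of mouse 7 (sedentary, ZT3) was 49.8 CPM, with 34.6 CPM as the nearest. Both libraries are among the 5 that go against their label. Aimp2 in mouse 58 (HIF1α KO, exercised, ZT3) was 101.0 CPM, the lowest of its group, with 114.6 CPM next. Grk3 in mouse 48 (fl/fl, exercised, ZT3), the shallowest library, was 8.24 CPM, with 9.96 CPM next. Mpp3 in mouse 33 (HIF1α KO, sedentary, ZT3) was 15.3 CPM, with 21.7 CPM next.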

How the results depend on the processing

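The genotype log2 fold changes of the 7 members kept their direction in all 77 planned recalculations and moved by less than the spread between replicates. That spread is the SD of log2 CPM after removal of group and sex, 0.21 to 0.34. It is a wide mark beside the SE of these fold changes, 0.057 to 0.089. The ranges were 0.55 to 0.58 for Car3, 0.57 to 0.62 for Plin3, and 0.55 to 0.57 for Aimp2. They were 0.64 to 0.68 for Dusp26, 0.45 to 0.49 for Grk3, 0.23 to 0.25 for Cdc42ep2, and 0.54 to 0.57 for Mpp3. The number of members that changed with sex was 3 and fell to 1, Car3, with the slow-fiber score as a covariate, and the number of correlated pairs of members was 3 and fell to 0 without the 5 discordant libraries. For the former the cause was not tested, and the slow-fiber score was itself mostly higher in females. The model without a sex term gives no value for sex. No paired analysis was possible because each mouse number occurs in 1 group only, so the groups share no replicate numbers. Leaving out single replicates was not run, since groups hold 7 or 8 mice. Of the libraries, 3 held under 5 M counts, where 1 CPM is under 5 counts, and this limits the rarer members and list genes such as Car9.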
